A study of Caenorhabditis elegans with 4 samples.

Results

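The regions described here are the 347 broad LIN-13 regions, which were chosen by width as the peaks of 1000 bp or more in the combined peak list of a ChIP-seq study in Caenorhabditis elegans. The combined list holds 2769 peaks on the 6 nuclear chromosomes, so the broad regions were 12.5% of it (95% Wilson interval 11.4% to 13.8%). The other 2422 peaks, each under 1000 bp, are called narrow peaks. LIN-13 was immunoprecipitated through an EGFP tag from hermaphrodites at the L4 larval stage, grown at 20 °C. All worms were of strain OP49, which has the allele unc119(ed3) and the transgene wgIs49. The transgene is a recombineered copy of lin-13 with the tags TY1 EGFP FLAG, introduced by bombardment with unc119 as the rescue marker. The study has 2 ChIP samples and 2 input DNA samples, and the ChIP samples and their inputs carry the same transgene. Peak lists of ChIP replicate 1, of ChIP replicate 2 and the combined list were compared. The labels do not say that the replicates were separate cultures, and no untagged strain is among the samples. Peaks over lin-13 or unc119 were not identified, so the part of extra transgene copies in any region was not tested.

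The protein LIN-13 has zinc fingers and belongs to the synthetic multivulva class B group, genes that hold back vulval cell fates in the worm. It is known to act with the retinoblastoma protein homologue LIN-35 and with the heterochromatin protein HPL-2, and genes of the group keep germline genes silent in somatic cells. A ChIP-seq peak is a stretch of genome where tagged fragments pile up above the input. A peak caller sets the edges of the stretch, so a broad peak may hold 1 wide site or several close sites that were drawn as one.

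Because width in the combined list chose the members, and that list may hold the reads of both replicates, no measure here is independent of the choice. All values are therefore given as a description without a test. The intervals treat regions as independent and cover counting error only. They do not cover differences between cultures, and read depth is unknown for all 3 lists. The only value deposited with a peak is the authors' q-value, which is given here as −log10 q. Peaks with larger values are called stronger, and the values rank peaks within a list.

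The broad regions covered 588 kb, or 34.0% of the 1732 kb in the combined list, against 1144 kb in narrow peaks. Their median width was 1316 bp, with the middle of the distribution between 1129.5 and 1884.5 bp and a full range of 1002 to 12291 bp, against a median of 431 bp for narrow peaks. Most were only somewhat wider than the threshold, with 213 between 1000 and 1499 bp, 58 between 1500 and 1999 bp, 54 between 2000 and 2999 bp and 22 of 3000 bp or more. The members just inside the threshold began at I 6584793 with a width of 1002 bp, III 6462441 with 1003 bp and II 2252028 with 1004 bp. The peaks just outside it began at II 13196483 and IV 5388139 with a width of 999 bp each, and at X 13968942 with 998 bp. Coordinates are those of genome build WormBase WS180.

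Broad regions were also the stronger peaks. Their median −log10 q was 14.1 (95% interval 12.7 to 15.6, range 3.72 to 163), against 5.61 (5.48 to 5.70, highest 63.0) for narrow peaks. Of the broad regions, 253 or 72.9% lay in the strongest 25% of the combined list, against 440 or 18.2% of the narrow peaks. Among the 100 strongest peaks 69 were broad, and among the 20 strongest 19 were. Width and strength thus moved together, and the comparisons of broad with narrow peaks below carry both.

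Broad regions were found in the replicate lists more often than narrow peaks. A region was counted as found where a replicate peak overlapped it by at least 1 bp. In both replicates, 194 of 347 broad regions were found, or 55.9% (50.6% to 61.04%), against 410 of 2422 narrow peaks, or 16.9% (15.5% to 18.5%), and 21.8% of all combined peaks. With at least 50% of the region covered in each replicate, the shares were 31.7% of broad regions (110 of 347) and 15.5% of narrow peaks (375 of 2422). Replicate 1 held a peak in 276 broad regions, or 79.5% (74.98% to 83.4%), against 39.8% of narrow peaks and 44.7% of all combined peaks. Replicate 2 held a peak in 209 broad regions, or 60.2% (55.0% to 65.2%), against 20.2% of narrow peaks and 25.2% of all combined peaks. The replicate 1 list is the longer, with 1309 peaks against 734. A further 82 broad regions were found in replicate 1 alone and 15 in replicate 2 alone. Of all 2769 combined peaks, 1239 were found in replicate 1, 699 in replicate 2 and 604 in both. Being found in 1 replicate alone was thus about as common in the whole list as in broad regions. No peak of either replicate touched 56 broad regions, or 16.1% (12.6% to 20.4%), against 56.9% of narrow peaks and 51.8% of all combined peaks.

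The share found in both replicates was higher in each wider class. It was 46.5% of regions between 1000 and 1499 bp, 60.3% between 1500 and 1999 bp, 72.2% between 2000 and 2999 bp, and 95.5%, or 21 of 22, at 3000 bp or more. Broad regions found in both replicates had a median −log10 q of 21.8 in the combined list, those in replicate 1 alone 10.9, those in replicate 2 alone 8.86, and those in neither 6.62. Of the 56 regions in neither replicate, 48 were under 1500 bp, against 213 of all 347 broad regions. The widest of them were III 7731955 to 7735153 with 3199 bp and a −log10 q of 17.9, I 2068895 to 2071125 with 2231 bp and 6.36, and II 7349618 to 7351619 with 2002 bp and 9.27. Each of these 3 was a broad region of the combined list without a single overlapping peak in the list of either replicate.

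Within the strongest class, broad and narrow peaks were found in both replicates at near shares. In the strongest 25% of the combined list, 187 of 253 broad regions were found in both, or 73.9% (68.2% to 78.9%), against 308 of 440 narrow peaks, or 70% (65.6% to 74.1%). In the next 25% the values were 9.38% of 64 broad regions against 15.1% of 628 narrow peaks. In the third 25%, 1 of 21 broad regions was found in both, or 4.76% (0.846% to 22.7%), against 6 of 671 narrow peaks, or 0.894%. In the weakest 25%, none of 9 broad regions was (up to 29.9%), against 1 of 683 narrow peaks. The order of the classes thus changed from each 25% to the next. Few broad regions were counted in the third and the weakest 25%. Even within the strongest 25% the broad regions had the larger −log10 q, with a median of 18.6 against 12.4 for the narrow peaks. The overall difference of 55.9% against 16.9% therefore narrowed to 73.9% against 70% among peaks of the strongest class.

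**Figure D1:**
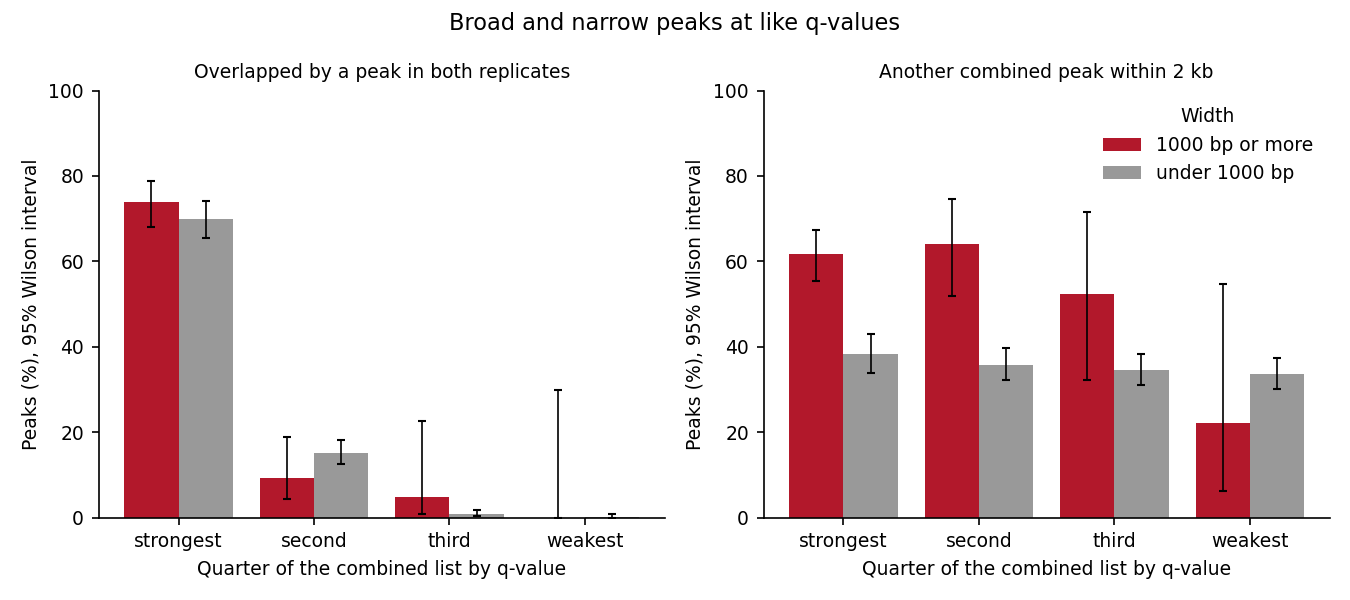
Shares of broad regions (red) and narrow peaks (grey) within 4 equal parts of the combined list in order of q-value, with the percent overlapped in both replicates on the left and the percent with another combined peak within 2 kb on the right. Lines are 95% Wilson intervals. In the strongest part the left bars stand at 73.9% and 70%, and the right bars at 61.7% and 38.4%.

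The replicate lists resolved most broad regions as a single peak. Replicate 1 held 1 peak in 239 regions, several in 37 and none in 71, so that 10.7% were split (7.84% to 14.4%). Replicate 2 held 1 peak in 183, several in 26 and none in 138, so that 7.49% were split (5.16% to 10.8%). With the replicate 1 list cut to its 734 strongest peaks, the length of the replicate 2 list, 6.63% were split in replicate 1 (4.46% to 9.75%). This was slightly below the replicate 2 share, and the intervals overlapped. Both replicates held exactly 1 peak in 152 regions, or 43.8%. In all, 48 regions were split in at least 1 replicate and 15 in both. Of the 2422 narrow peaks, 1 held several replicate 1 peaks and none held several replicate 2 peaks. Narrow peaks have less room for several peaks and the gap between them, so these counts are bounded by width.

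Splitting was more common in the wider classes of broad region. In replicate 1 it was 1.88% of regions between 1000 and 1499 bp, 17.2% between 1500 and 1999 bp, 27.8% between 2000 and 2999 bp and 36.4% at 3000 bp or more. In replicate 2 the same classes had 0.469%, 8.62%, 16.7% and 50%. At 3000 bp or more, 13 of 22 regions were split in at least 1 replicate. Neighbouring peaks of a list were never closer than 200 bp in the combined list, 203 bp in replicate 1 and 204 bp in replicate 2. A split region must hold such a gap and touch a peak on each side of it. Width itself therefore bounds how often a split can be counted, and its part in this trend was not tested. All 48 split regions lay in the strongest 25% of the combined list, and their median −log10 q was 30.7, against 20.0 for regions with 1 peak in each replicate.

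**Figure D2:**
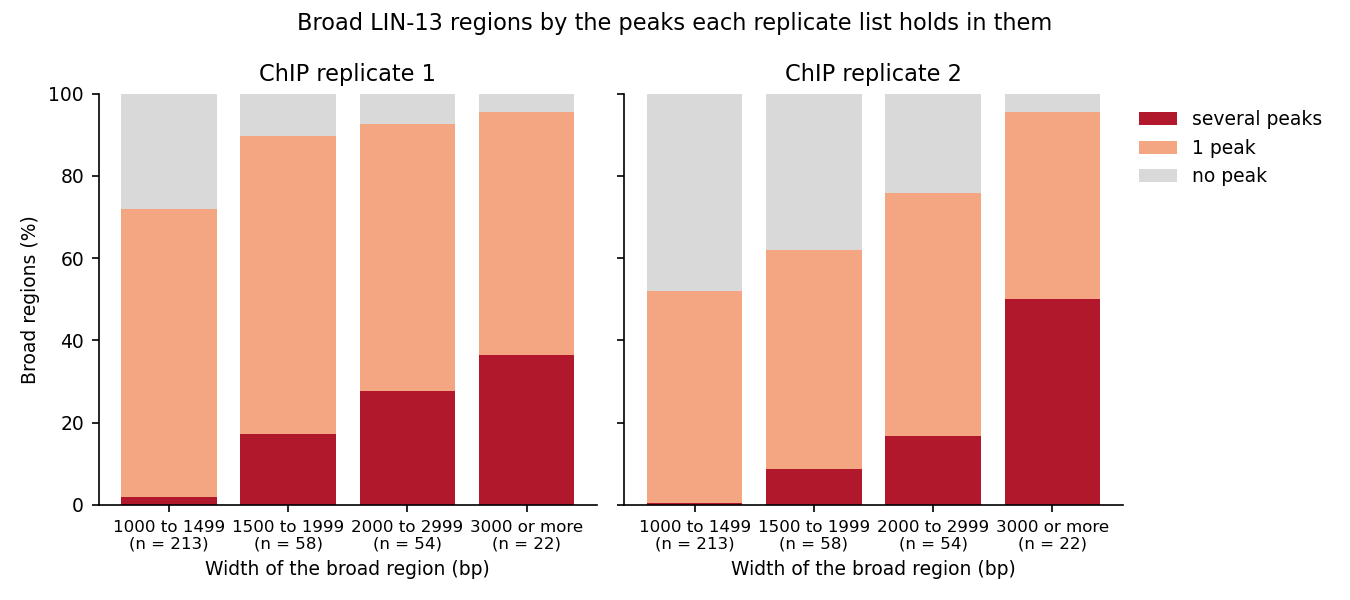
Percent of the 347 broad regions in which the replicate 1 list (left) and the replicate 2 list (right) hold several peaks, 1 peak or no peak, by width class in bp. The share with several peaks is 36.4% in replicate 1 and 50% in replicate 2 at 3000 bp or more, and 1.88% and 0.469% between 1000 and 1499 bp.

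The replicates did not always split a region in the same way. Among the 194 regions found in both, 163 held the same number of peaks in each, 18 held more in replicate 1 and 13 held more in replicate 2. In the 15 regions split in both replicates, replicate 1 had 19 gaps between peaks and replicate 2 had 20. Of these, 13 gaps of replicate 1 met a gap of replicate 2 by at least 1 bp. Replicate 1 had 20 further gaps in regions where replicate 2 held 1 peak, and that peak covered 7 of the gaps whole, 7 in part and 6 not at all. In the reverse case replicate 2 had 10 gaps, and the single replicate 1 peak covered 9 of them whole. Gaps inside broad regions had medians of 331.5 bp in replicate 1 (203 to 1450 bp, 44 gaps) and 428 bp in replicate 2 (204 to 2006 bp, 31 gaps). The split peaks were themselves not small, with median widths of 816 bp over 81 peaks in replicate 1 and 826 bp over 57 peaks in replicate 2.

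Replicate peaks covered only part of most broad regions. The median share of a region's bases under replicate 1 peaks was 61.7% (57.0% to 69.2%), and under replicate 2 peaks 32.4% (25.9% to 39.8%). Regions that held no peak were counted as 0. Counted in the same way, the median for narrow peaks was 0 in each replicate, since most narrow peaks held no replicate peak. Among regions found in both replicates, narrow peaks were instead the more fully covered. Their medians were 85.9% under replicate 1 and 80.4% under replicate 2, against 78.2% and 58.9% for broad regions. At least 50% of the bases were covered in 216 broad regions by replicate 1 and in 128 by replicate 2. Full coverage was reached in 8 regions by replicate 1 and in 2 by replicate 2. Of the 194 regions found in both, 149 had more bases under replicate 1 and 44 under replicate 2. Where a region held 1 replicate peak, that peak had a median width of 954 bp in replicate 1 and 841 bp in replicate 2. The median uncovered stretch was 98 bp on the left and 81 bp on the right in replicate 1, and 194 bp and 174 bp in replicate 2. The midpoint of the region lay under the single peak in 198 of 239 regions in replicate 1 and in 136 of 183 in replicate 2. Replicate peaks also reached past the edge of the combined region in 97 of 276 regions in replicate 1, by a median of 37 bp, and in 34 of 209 in replicate 2, by 28.5 bp.

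The replicates shared fewer of the bases of broad regions than of narrow peaks. Among regions found in both, the bases under peaks of both replicates were a median of 51.5% of a broad region, against 73.8% of a narrow peak. Set against the bases under a peak of at least 1 replicate, the shared bases were a median of 67.3% in broad regions (61.5% to 73.8%) and 81.6% in narrow peaks (80.8% to 83.4%). Bases shared by both replicates made up at least 50% of the region in 99 of 194 broad regions, against 365 of 410 narrow peaks. In 3 broad regions both replicates held a peak but shared no base. These were III 6551017 to 6552082, III 8984415 to 8985451 and X 13526210 to 13527827, and among narrow peaks there was 1 such case.

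The widest broad region lay at II 10541870 to 10554160, a stretch of 12291 bp with a −log10 q of 163, the strongest of the combined list. Replicate 1 held 4 peaks there, of 4918, 836, 947 and 2368 bp, with −log10 q of 60.5, 5.27, 11.2 and 14.0. Replicate 2 held 2 peaks, of 7765 and 1043 bp, with −log10 q of 62.6 and 9.004. In both lists the strongest peak was the leftmost one, which began just before the left edge of the region. The single wide replicate 2 peak ran over the first 2 gaps of replicate 1, of 769 and 230 bp, while the gap of 1450 bp in replicate 1 and that of 2006 bp in replicate 2 lay over each other. Replicate 1 covered 73.7% of the region, replicate 2 71.4%, and both together shared 62.9%.

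The region V 6220746 to 6230121, of 9376 bp with a −log10 q of 119, held 3 peaks in replicate 1 and 4 in replicate 2. The replicate 1 peaks were 457, 3112 and 3486 bp wide with −log10 q of 5.39, 31.5 and 33.3, so 2 wide peaks of like strength held most of it. The replicate 2 peaks were 709, 1974, 2078 and 1496 bp wide with −log10 q of 4.89, 19.2, 13.6 and 9.002. The leftmost replicate 1 peak had no counterpart in replicate 2. Both replicates shared 61.4% of the bases.

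The region X 4141995 to 4148897, of 6903 bp with a −log10 q of 102, also held 3 peaks in replicate 1 and 4 in replicate 2. Replicate 1 peaks were 1709, 1708 and 2569 bp wide with −log10 q of 13.7, 11.7 and 33.3, and the strongest was the rightmost. Replicate 2 peaks were 1366, 1488, 826 and 1131 bp wide with −log10 q of 11.5, 10.1, 5.67 and 12.6. The leftmost gap was common to both replicates. The other gap of replicate 1 lay whole under a replicate 2 peak, and the other 2 gaps of replicate 2 lay whole under replicate 1 peaks. Replicate 1 covered 85.8% of this region and replicate 2 69.7%.

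Other wide regions held 1 peak in each replicate, though the share it covered differed. Replicate 1 held 1 peak over 95.5% of I 7078931 to 7085285, the widest region of chromosome I at 6355 bp, while the single replicate 2 peak covered 26.9% of it, at the left end. At V 723806 to 728335, of 4530 bp, 1 peak covered 98.3% in replicate 1 and 96.1% in replicate 2. The widest regions of the remaining chromosomes, III 9050882 to 9055050 with 4169 bp and IV 17277814 to 17281961 with 4148 bp, were 1 peak in each replicate. That peak covered 88.3% of the chromosome III region in replicate 1 and 77.3% in replicate 2, and 93.7% and 82.4% of the chromosome IV region.

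The rest of the 10 widest regions were resolved unevenly. At II 8743048 to 8747981, of 4934 bp, replicate 1 held 1 peak over 95.2% and replicate 2 held 2 peaks over 85.6%. At X 6740708 to 6744889, of 4182 bp, replicate 1 held 1 peak over 88.2% and replicate 2 held 2 over 46.7%. At II 14598269 to 14602925, of 4657 bp, the order was the other way, with 3 peaks over 61.005% in replicate 1 and 1 over 23.4% in replicate 2.

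Strength followed width only in part among the strongest broad regions. The strongest was also the widest, and the third strongest, V 6220746 to 6230121, was the second widest. The second strongest was X 16929302 to 16931959, at 2658 bp, with a −log10 q of 138 and 1 peak over 98.8% of it in replicate 1 and 96.9% in replicate 2. III 8443365 to 8447508 had 4144 bp and a −log10 q of 105, and 1 peak covered 89.96% of it in replicate 1 and 92.1% in replicate 2. The region IV 17277814 to 17281961 followed with a −log10 q of 103.

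**Figure D3:**
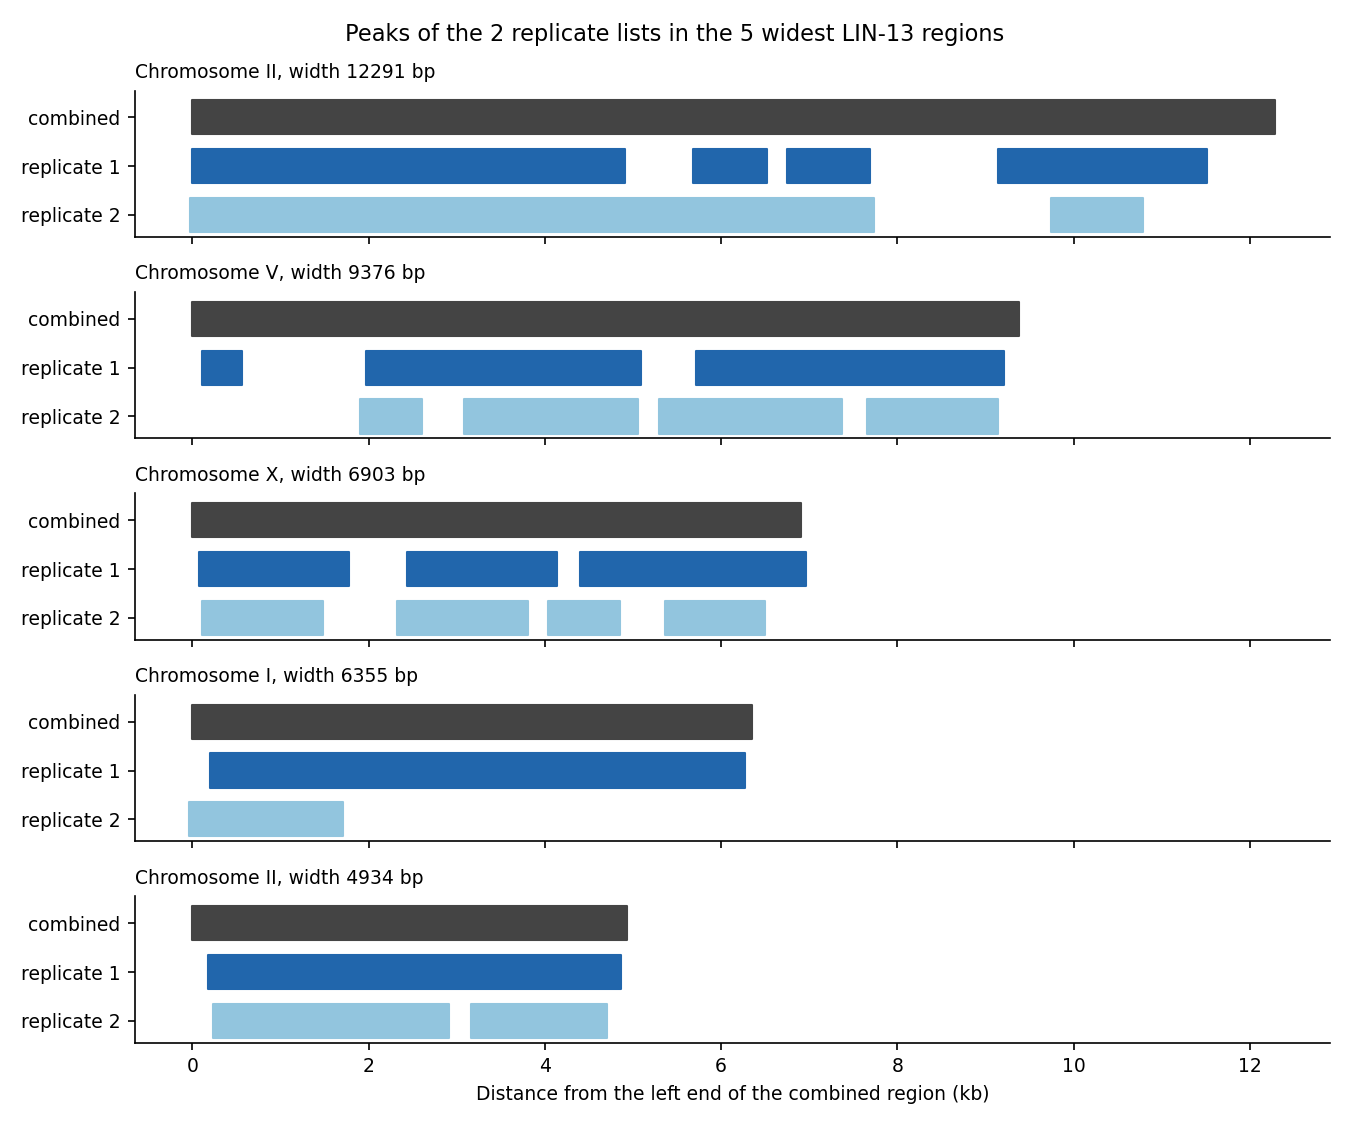
Peaks of replicate 1 (dark blue) and replicate 2 (light blue) in the 5 widest broad regions (grey, combined list), drawn to scale in kb from the left end of each region. The 12291 bp region on chromosome II holds 4 replicate 1 peaks and 2 replicate 2 peaks, and the 6355 bp region on chromosome I holds 1 of each, with replicate 2 over the left end alone.

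A width of 1000 bp or more was also reached within the replicate lists. Replicate 1 had 142 such peaks, or 10.8% of its list, and replicate 2 had 83, or 11.3%. Of these, 131 in replicate 1 and 80 in replicate 2 overlapped a broad region of the combined list. A wide replicate 1 peak lay in 126 broad regions, a wide replicate 2 peak in 75, and a wide peak of each in 53. Most broad regions were thus 1000 bp or more in the combined list alone. Wide replicate peaks without any combined peak were few. The replicate 1 peak I 15063996 to 15067637, of 3642 bp, and the replicate 2 peak I 15063993 to 15067640, of 3648 bp, lay over each other with −log10 q of 176 and 220. The combined list holds no peak on chromosome I beyond base 14790443. The other case was V 14832423 to 14833442 in replicate 2, with 1020 bp and a −log10 q of 4.27.

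Broad regions lay closer to other peaks than narrow peaks did. The median gap from a broad region to the nearest combined peak, edge to edge, was 1250 bp (976 to 1744 bp), against 4352 bp (3927 to 4802 bp) for narrow peaks. Within 2 kb another peak lay beside 210 broad regions, or 60.5% (55.3% to 65.5%), against 856 narrow peaks, or 35.3% (33.5% to 37.3%). Within 500 bp the shares were 28.2% and 10.3%. Between centres, which also count the region's own width, the median distance was 2572 bp for broad regions, against 4912 bp for narrow peaks. The gap also depends on the weaker neighbours, and within the stronger 50% of the list its median was 3353 bp (2125 to 4381 bp) for broad regions, against 11684 bp (9717 to 12835 bp) for narrow peaks.

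The share with a near neighbour was larger for broad regions in all but the weakest 25% of the list, though few broad regions lay in the third 25%. In the strongest 25% of the combined list, 61.7% of broad regions had another peak within 2 kb, against 38.4% of narrow peaks, and the median gaps were 1233 bp and 3566 bp. In the next 25% the shares were 64.1% and 35.8%, and in the next 52.4% of 21 broad regions against 34.6%. For those 21 broad regions the median gap was 1744 bp (329 to 13294 bp), an interval that held the 4938 bp of the narrow peaks. In the weakest 25%, 2 of 9 broad regions had such a neighbour, or 22.2%, against 33.7% of narrow peaks. The same order was found on each of the 6 chromosomes, from 44.9% against 22.1% on X to 66.7% against 31.8% on IV.

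**Figure D4:**
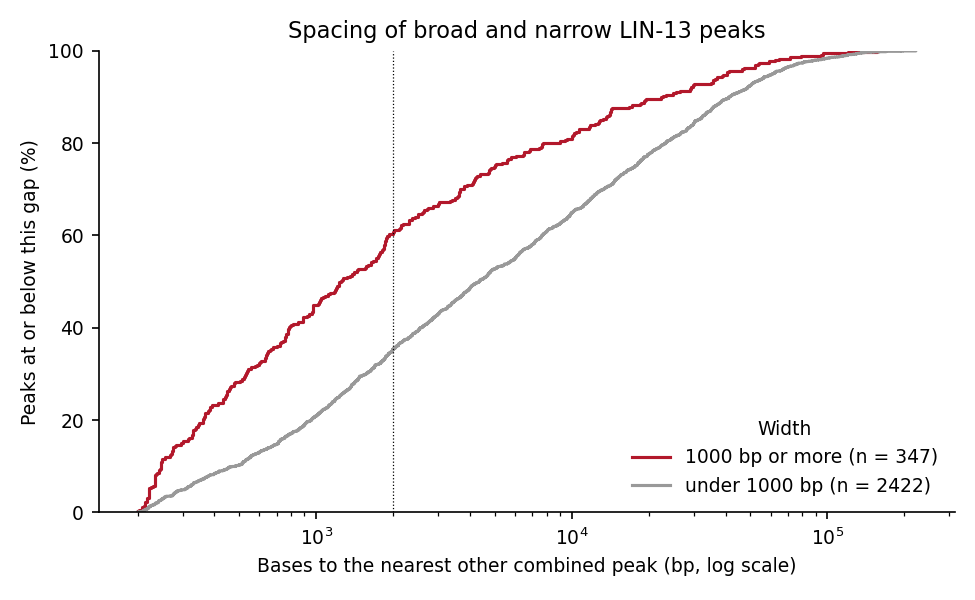
Cumulative percent of the 347 broad regions (red) and the 2422 narrow peaks (grey) by the bases to the nearest other combined peak, on a log axis in bp. At the dotted line of 2 kb the curves stand at 60.5% and 35.3%.

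Narrow peaks flanked many broad regions. A narrow peak lay within 2 kb of 150 broad regions, or 43.2% (38.1% to 48.5%), against 29.4% (27.7% to 31.3%) of narrow peaks with another narrow peak as near. Within the stronger 50% of the combined list alone, the shares were 23.7% of 317 broad regions (19.3% to 28.6%) and 15.4% of 1067 narrow peaks (13.3% to 17.7%). It lay to the left alone of 56 broad regions, to the right alone of 58 and on both sides of 36, so neither side was favoured in count. Narrow peaks on both sides were found for 10.4% of broad regions and 3.34% of narrow peaks.

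The flanking narrow peaks were 192 in number, or 7.93% of all narrow peaks. They had a median width of 553 bp (514 to 609 bp), against 422 bp (412 to 432 bp) for the other 2230 narrow peaks. Their median −log10 q was 5.99 (5.49 to 6.55), against 5.58 (5.43 to 5.69), so in strength the intervals overlapped. In both replicates 21.4% of them were found (16.1% to 27.7%), against 16.5% (15.1% to 18.1%) of the other narrow peaks. These intervals overlapped too, and the share over all combined peaks was 21.8%. A replicate peak joined 5 of the 192 to the neighbouring broad region.

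Broad regions also lay near each other. Another broad region was within 2 kb of 77 broad regions, or 22.2%, against 7.93% of narrow peaks, and within 10 kb of 122, or 35.2%, against 17.1%. Of the 341 pairs of neighbouring broad regions on a chromosome, 41 were within 2 kb and 3 of these had a narrow peak between them. The median gap between neighbours was 178 kb, and 20 pairs were over 1 Mb apart. The longest stretch without a broad region ran from III 1952070 to III 3789623, or 1838 kb. The closest pairs were IV 7789466 to 7790580 with IV 7790789 to 7792332 at 208 bp, IV 7958312 to 7960003 with IV 7960217 to 7962106 at 213 bp, and II 5335635 to 5337662 with II 5337885 to 5339104 at 222 bp.

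Steps of at most 2 kb linked broad regions into 31 groups of 2 and 5 groups of 3, while 270 stood alone. The longest group began with the widest region and ran over 18373 bp at II 10541870 to 10560242. On chromosome I, a group of 3 at 9378418 to 9384229 had regions of 2297, 1180 and 1833 bp with −log10 q of 11.5, 35.4 and 20.7. Replicate 1 drew this stretch as 2 peaks, and the first, of 2929 bp at 9379524 to 9382452, touched all 3 broad regions. Replicate 2 also had 2 peaks, of 2213 and 1469 bp. Here the edges set by the combined list and by the replicates cut the same stretch at different places.

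Broad regions were spread over all 6 chromosomes. There were 54 on chromosome I, 50 on II, 63 on III, 63 on IV, 68 on V and 49 on X. Chromosome lengths were set to the last base of any peak in the 3 lists and so are lower bounds. With these the density was 3.47 broad regions per Mb against 24.2 narrow peaks per Mb. Chromosome III had the highest density of broad regions, at 4.57 per Mb, against 45.6 narrow peaks per Mb. X had the lowest density of broad regions, at 2.78 per Mb, against 18.5 narrow peaks per Mb. Chromosome III held 18.2% of the broad regions and 25.9% of the narrow peaks. Its excess over the other chromosomes was thus larger in narrow peaks than in broad regions.

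As a share of a chromosome's peaks, broad regions were 17.6% on I (13.7% to 22.2%), 15.1% on V (12.1% to 18.7%), 13.1% on X (10.0% to 16.9%), 13.02% on IV (10.3% to 16.3%), 10.8% on II (8.32% to 14.0%) and 9.12% on III (7.19% to 11.5%). Chromosome III was therefore highest in broad regions per Mb and lowest in their share among its own peaks. Neighbours in this order overlapped in their intervals, while the intervals of I and V both lay above that of III. Median widths differed little, from 1294.5 bp on V to 1370 bp on X. The median −log10 q was highest on II, at 20.3, and lowest on V, at 11.8.

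**Figure D5:**
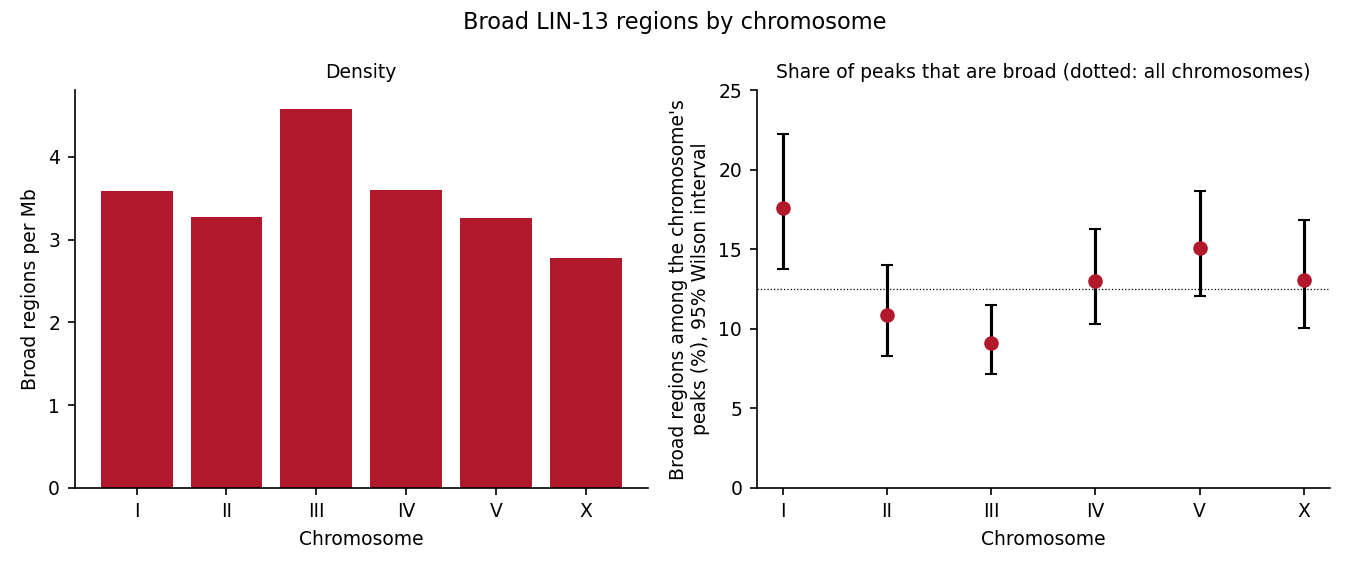
Broad regions per Mb of chromosome (left) and broad regions as a percent of each chromosome's combined peaks with 95% Wilson intervals (right); the dotted line marks 12.5% for all chromosomes. Chromosome III stands at 4.57 per Mb on the left and at 9.12% on the right.

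The share found in both replicates varied between chromosomes. On II, 35 of 50 broad regions were found in both replicates, or 70% (56.25% to 80.9%), against 17.3% of the narrow peaks there. The share was 65.1% on III, 58.7% on IV, 57.1% on X and 52.9% on V. Of the narrow peaks, 131 of 628 were found in both on III, 69 of 421 on IV, 66 of 326 on X and 56 of 383 on V. Chromosome II was thus highest for broad regions but not for narrow peaks. On I it was 17 of 54, or 31.5% (20.7% to 44.7%), against 6.72% of the narrow peaks there, the lowest value for both classes. Chromosome I also held 19 of the 56 broad regions that were found in neither replicate, and none of the 15 that were split in both. Without chromosome I, 60.4% of broad regions and 18.1% of narrow peaks were found in both replicates.

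Along the chromosomes, 152 broad regions lay in the arms, taken as the outer 25% of the length at each end, or 43.8% (38.7% to 49.1%), against 50.8% (48.8% to 52.8%) of narrow peaks. On 5 chromosomes the share in arms was lower for broad regions, and on V it was higher, at 44.1% of broad regions against 40.7% of narrow peaks. The arm regions were split evenly, with 74 in left arms and 78 in right arms. In whole windows of 1 Mb, the median was 3 broad regions over 97 windows, and 7 windows held none. The part of each chromosome beyond its last whole window was left out. One of the empty windows, III 2 to 3 Mb, held 55 narrow peaks. The densest window was I 7 to 8 Mb, with 11 broad regions and 14 narrow peaks, while III 1 to 2 Mb held 7 broad regions among 100 narrow peaks. Over all 97 windows the counts of broad regions and narrow peaks were positively related, with Spearman's rho at 0.31 and Pearson's r at 0.28. This is a description, since both counts come from 1 list and share its depth.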

How the data were processed

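Per the file headers, the authors called peaks with PeakSeq, which sets ChIP reads against input reads, on WormBase WS180. Its version, the aligner, the filters and the making of the combined list were not given in the sources used here. Each deposited peak has 1 value. This deposited unit is a linear q-value. It was turned here into −log10 q. Groups came from sample titles, since description fields do not match them. Input files were not used here. Widths, overlaps (at least 1 bp, 0 regions differing from bedtools 2.31.1), edge gaps, Wilson intervals and order-statistic intervals for medians (95%) came from pandas 2.3.3, numpy 2.4.6 and scipy 1.17.1 in Python 3.11.15 and were checked on simulated regions. Depth is unknown. Members and lists were chosen with earlier results of these data known. The regions named are the 10 widest, the widest of each chromosome, those with most peaks in each replicate, the 5 strongest, the 3 widest found in neither replicate, the 3 closest pairs and those nearest the threshold. Further regions and windows, such as those sharing no base and the group on chromosome I, were named after their values were seen. Genes and sequences of build WS180 were not used here. Alternatives were other widths, overlaps, distances, q-value ranks, chromosomes and joined peaks.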

Additional observations from a re-analysis of the deposited data

How the results depend on the processing

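Of 64 alternative values, 34 stayed within the counting error of the value reported, or within 1.5 times of a count. The threshold of 1000 bp, chosen by hand, moved most values. At 2000 bp, 78.9% of regions were found in both replicates, 30.3% were split in replicate 1 and 26.3% in replicate 2, the covered medians were 74.7% and 54.3%, the gap was 795 bp and 60.5% had a narrow peak within 2 kb. At 800 bp these values were 46.8% found in both, 6.65% and 4.68% split, 16.9% covered by replicate 2 and 36.2% with a narrow peak. At both of these thresholds, narrow meant a width under that threshold, so the neighbours counted were not those under 1000 bp. Width within the lists themselves gave 142 broad peaks in replicate 1 and 83 in replicate 2. Asking for 50% of the bases covered gave 31.7% in both, and the strongest 25% of the list gave 73.9%. Leaving out each replicate gave 60.2% to 79.5%. These are the shares found in the remaining replicate. They could not fall below the 55.9% found in both, so they do not check it, though they are counted among the 64. With replicate 1 held to the length of the shorter list, 6.63% were split and 52.9% of bases covered. Joining replicate peaks across 500 bp left 4.61% and 2.59% split, and across 1000 bp 1.15% and 0.865%. The gap was 2572 bp between centres, 48284 bp to the nearest broad region and 3353 bp in the stronger 50% of the list. A narrow peak lay within 1 kb of 30.3%, within 5 kb of 58.2%, and within 2 kb of 23.7% in the stronger 50%. Joining combined peaks across 1000 bp put 24.9% of broad regions on chromosome III. The settings without chromosome I, at the strongest 25% and with joined peaks were chosen after seeing the data. No paired analysis was possible because the values come from peak lists with no test between groups. Unknown depth limits what an absent peak means.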
